A study of Homo sapiens with 18 samples.

Results

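The experiment compared IMR90 cells, a widely used strain of primary human lung fibroblasts, that had been pre-incubated with cNSF-HA or with PBS and then stressed with tBHP (tert-butyl hydroperoxide), a membrane-permeable oxidant. The 6 libraries compared, 3 per pre-incubation, were taken by their labels from the 18 libraries of the study, and 13686 of the 56269 genes in the table were tested, those with a mean of at least 10 normalized counts over the 18 libraries. NSF-HA is hyaluronan of very high molecular mass from the medium of naked mole-rat skin fibroblasts. In cNSF-HA the hyaluronan was heated with an enzyme already inactivated, so that its chains stayed long, and in fNSF-HA an active hyaluronidase had cut them in part. Cells received 20 μg/ml of HA or PBS for 6 h. The HA was then removed, 200 μM tBHP was given for 1 h, and RNA was collected 6 h after the start of tBHP. All the groups were in medium with 15% FBS, and libraries from cells collected after the pre-incubation alone were used for comparison. The study describes its replicates as biological, and the labels do not say whether they were separate cultures, so p-values measure the spread between these samples.

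Hyaluronan is a long, unbranched sugar chain of the extracellular matrix that is bound at the cell surface by CD44 and RHAMM. CD44 can be cut by membrane proteases and by γ-secretase, and its tail anchors ERM proteins and ankyrins and engages Src-family kinases and Rac exchange factors. An oxidant such as tBHP damages lipids, proteins and DNA. Cells answer with p53, which drives genes of arrest and apoptosis, and with NRF2, which drives genes of antioxidant defence. The comparison asks which transcripts differed between stressed cells that had met long hyaluronan and stressed cells that had not.

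Fibroblast transcripts were abundant in all 6 libraries: the summed level of the 14 fibroblast markers ran from 632665 to 769506 normalized counts in PBS cells and from 660744 to 689491 in cNSF-HA cells. Of 11 epithelial markers, 10 stayed under 20 normalized counts in every library and KRT5, SFTPA1, SFTPB, SFTPC, NKX2-1 and SCGB1A1 were at 0, while CLDN4 was well expressed. PECAM1 and CDH5 of endothelium and CD3E, MS4A1 and NKG7 of immune cells were also at 0, whereas the endothelial markers TEK, at 694 to 1006 normalized counts, and TIE1, at 487 to 649, were expressed, as was the immune marker CSF1R, at 54.4 to 80.6. VWF of endothelium reached 25.0 in 1 library. TEK had 958, 1006 and 984 normalized counts in PBS cells and 891, 916 and 694 in cNSF-HA cells, with no overlap (log2 difference -0.25, adjusted p = 0.561 in limma, and -0.12 without cNSF-HA replicate 3). The fibroblast marker S100A4 had 94.2, 52.3 and 73.3 against 76.9, 112 and 134 (log2 difference 0.55, adjusted p = 0.558, and 0.38 without cNSF-HA replicate 3). These were the 2 of 19 tested markers with an unadjusted p under 0.05, and their part in the results was not tested. In RNA from whole cultures, fewer cells of a kind and less RNA per cell cannot be told apart. Reads counted on genes ran from 20690497 to 21036981 in the PBS libraries and from 21855689 to 22820095 in the cNSF-HA libraries. The median SD within a group was 0.15 on the log2 scale in both groups, against 0.07 in both groups without tBHP.

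In each group 1 library stood apart. Between cNSF-HA replicates 1 and 2 the counts differed with a chi-square per degree of freedom of 2.72, and replicate 3 differed from them by 32.4 and 25.7. In replicate 3 the genes with the longest transcripts (median 3205 bases) lay low, with a median deviation of -0.14 from the mean of the 6 libraries, against 0.03 and 0.02 in the other cNSF-HA libraries. Among the PBS libraries replicate 1 lay farthest off, at 16.9 and 14.3 from the others, which differed from each other by 4.06. Its deviation ran from -0.15 for the transcripts with the least GC to 0.15 for those with the most, and in PBS replicate 2 it ran the opposite way, from 0.15 to -0.14. For most gene lists the count of members past an unadjusted p of 0.05 is therefore also given without each of these libraries.

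**Figure D1:**
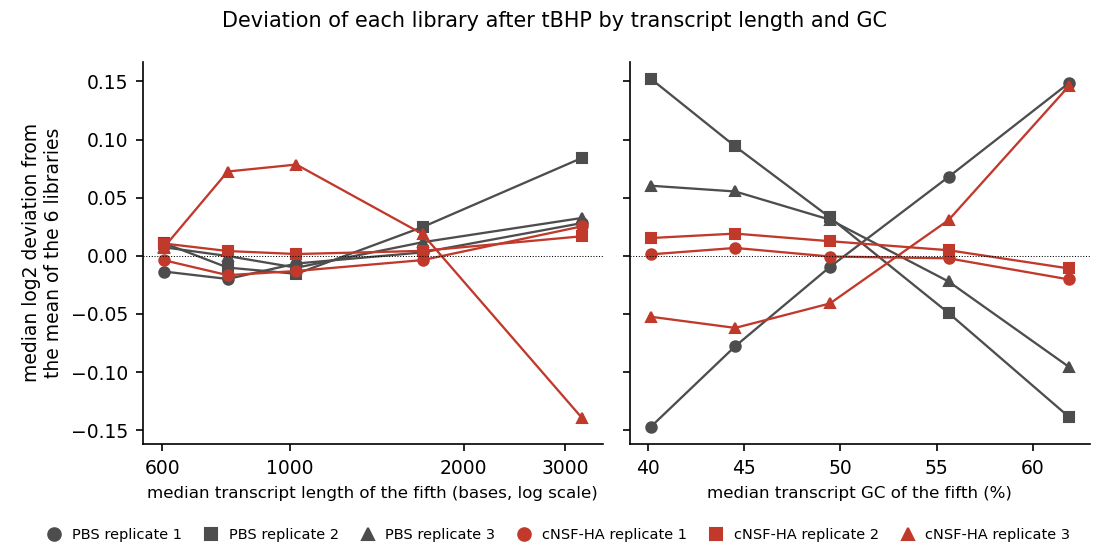
Median log2 deviation of each library after tBHP from the mean of the 6 libraries, for genes in 5 equal bins of transcript length (left, bases, log scale) and of transcript GC content (right, %). Grey lines are PBS libraries and red lines cNSF-HA libraries, with a marker for each replicate; cNSF-HA replicate 3 falls to -0.14 at the longest transcripts, and the GC trend of PBS replicate 1 runs opposite to that of PBS replicate 2.

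Pre-incubation with cNSF-HA left the transcriptome of stressed cells close to that after PBS. The median absolute log2 difference was 0.11, 74.9% of genes differed by less than 0.2, and 68 genes differed by more than 1. In the test with limma (linear models on log2(normalized count + 1) over all 18 libraries, two-sided, Benjamini-Hochberg adjustment over all genes tested), 0 genes (0%) had an adjusted p under 0.05, and the smallest adjusted p was 0.146. An unadjusted p under 0.05 was reached by 1183 genes (8.64%), 518 (3.78%) with a higher and 665 (4.86%) with a lower level after cNSF-HA. In 1310 genes (9.57%) the values of the groups were fully apart, with no overlap between libraries. With 3 libraries per group, values can be fully apart without any difference between the groups. Each statement of no overlap below is to be read beside this share. With only the 6 libraries compared in the fit, 535 genes (3.91%) had an unadjusted p under 0.05 and 0 (0%) an adjusted one (smallest 0.900). In the fit over 18 libraries the count at an unadjusted p under 0.05 was 557 (4.07%) without cNSF-HA replicate 3, with 1.9% of all genes higher and 2.17% lower, and 1537 (11.2%) without PBS replicate 1, with 4.33% higher and 6.9% lower, where 1 gene (0.00731%), NPAS4, passed the adjusted threshold. Without cNSF-HA replicate 1 it was 1923 (14.1%), and 1 gene (0.00731%), the clone-named CTD-2192J16.15, passed the adjusted threshold. With the dependence of each library on transcript length and GC taken out, 1990 of 12528 genes (15.9%) had an unadjusted p under 0.05 (8.47% higher and 7.42% lower) and 1 (0.00798%), HAT1, an adjusted one.

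Tests on the reads recovered from the table gave few calls. With edgeR's quasi-likelihood test 0 genes had an adjusted p under 0.05 (smallest 0.206), and 1103 (8.06%) had an unadjusted p under it. With DESeq2, the tool of the study, 9 genes (0.0658%) had an adjusted p under 0.05, and in all 9 the libraries of the groups did not overlap. In cNSF-HA cells 6 of these (0.0438%) were up and 3 (0.0219%) down. With only the 6 libraries compared, DESeq2 called 0 genes (0%; smallest adjusted p 0.995), so that none of the 9 calls held in that fit. In the fit of all groups the number of calls was 92 without cNSF-HA replicate 1, 1 without PBS replicate 1 and 0 without any other library of the comparison.

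**Figure D2:**
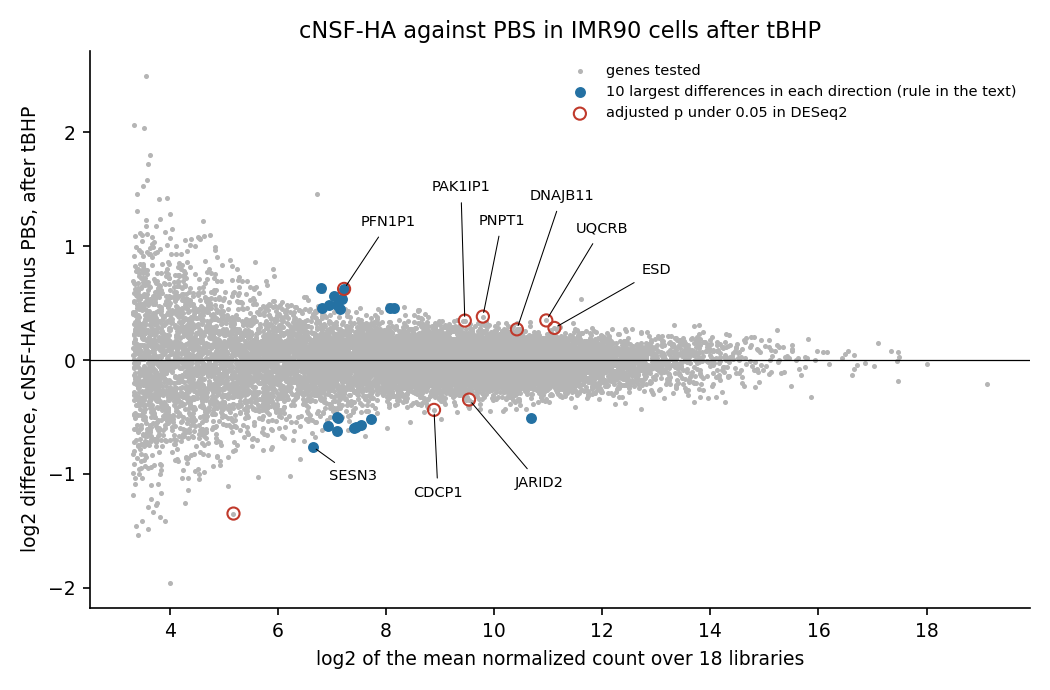
Log2 difference between cNSF-HA and PBS cells after tBHP (y axis, from log2(normalized count + 1)) against the log2 mean normalized count over 18 libraries (x axis) for the 13686 genes tested. Blue points are the 10 genes named in each direction for the largest differences, and red rings the 9 genes with an adjusted p under 0.05 in DESeq2; nearly all genes lie close to 0, and the widest scatter is among genes of low level.

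Of the 6 higher genes called by DESeq2, 5 encode proteins and 1 is a pseudogene. ESD (chromosome 13, 46771256 to 46797232, minus strand), an esterase that splits S-formylglutathione, had 1527, 1630 and 1651 normalized counts in PBS cells and 1880, 1975 and 1988 in cNSF-HA cells. Every cNSF-HA library lay above every PBS library, and cNSF-HA cells had 1.22-fold more (log2 difference 0.28 with a standard error of 0.06, adjusted p = 0.00908 in DESeq2 and 0.361 in limma). UQCRB, a subunit of respiratory complex III, stood at 1838, 1762 and 1752 in PBS cells and at 2071, 2244 and 2514 in cNSF-HA cells, 1.27-fold higher (log2 difference 0.35 with a standard error of 0.07, adjusted p = 0.00912 in DESeq2). Here too the groups were apart, with cNSF-HA replicate 3 highest, and the log2 difference without that library was 0.27.

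PAK1IP1 (chromosome 6, 10694695 to 10709782, plus strand), a nucleolar protein of ribosome assembly, had 434, 477 and 460 normalized counts in PBS cells and 538, 627 and 579 in cNSF-HA cells (log2 difference 0.35, standard error 0.07, adjusted p = 0.0225 in DESeq2). PNPT1 (chromosome 2, 55634265 to 55693910, minus strand), the polynucleotide phosphorylase of mitochondria, had 390, 422 and 387 against 485, 559 and 521, 1.30-fold higher (log2 difference 0.38 with a standard error of 0.08, adjusted p = 0.0241 in DESeq2). For both genes the difference did not rest on cNSF-HA replicate 3, since it was 0.35 and 0.38 without it. DNAJB11 (chromosome 3, 186567403 to 186585800, plus strand), a co-chaperone of BiP in the endoplasmic reticulum, had 1510, 1384 and 1338 in PBS cells and 1665, 1654 and 1778 in cNSF-HA cells (log2 difference 0.27, adjusted p = 0.048 in DESeq2). The remaining call, PFN1P1, is a processed pseudogene of profilin 1 with 117, 132 and 136 normalized counts in PBS cells and 190, 199 and 204 in cNSF-HA cells. Its log2 difference was 0.62, but reads of its parent gene can be counted on such a copy, so its level is uncertain.

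Lower in cNSF-HA cells were CDCP1, JARID2 and 1 gene with a clone-based name. CDCP1 (chromosome 3, 45082278 to 45146422, minus strand), a transmembrane substrate of Src kinases, had 601, 531 and 566 normalized counts in PBS cells and 489, 421 and 353 in cNSF-HA cells. The highest cNSF-HA library lay below the lowest PBS library, and the log2 difference was -0.44 (0.738 times the PBS level, standard error 0.10, adjusted p = 0.048 in DESeq2), and -0.32 without cNSF-HA replicate 3. JARID2 (chromosome 6, 15246296 to 15522040, plus strand), an accessory subunit of the Polycomb complex PRC2, had 1108, 1235 and 1096 against 930, 931 and 841, which differed by -0.35 on the log2 scale (standard error 0.09, adjusted p = 0.048 in DESeq2) and by -0.20 with the GC and length trend removed (adjusted p = 0.240 in limma). The clone-named gene, CTD-2192J16.15, is listed here after its values were seen: it had 64.7, 65.3 and 62.4 normalized counts in PBS cells and 37.9, 18.3 and 21.3 in cNSF-HA cells (log2 difference -1.35, adjusted p = 0.00908 in DESeq2). Another clone-named gene, RP4-545K15.5, also listed after its values were seen, had the smallest adjusted p of any gene in limma (0.146), with 11.3, 19.6 and 16.4 normalized counts in PBS cells and 2.11, 5.07 and 3.05 in cNSF-HA cells.

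Beside these, MTERF3 and PTRH2 were among the 10 genes of at least 100 normalized counts with the smallest p-values in limma. MTERF3, which acts on mitochondrial transcription and ribosome assembly, had 229, 232 and 190 in PBS cells and 277, 302 and 302 in cNSF-HA cells (log2 difference 0.44, adjusted p = 0.361). PTRH2, a mitochondrial peptidyl-tRNA hydrolase, had 510, 524 and 557 against 626, 642 and 719 (log2 difference 0.32, adjusted p = 0.386). The groups did not overlap for either gene, and neither passed the adjusted threshold in limma, edgeR or DESeq2.

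The genes with the largest differences were those with at least 100 normalized counts on average, an unadjusted p under 0.05 and no overlap between the groups, 527 genes in all (249 higher and 278 lower), from which the 10 largest in each direction were taken. Among the 10 higher ones the log2 differences ran from 0.45 to 0.63, with adjusted p-values in limma from 0.361 to 0.569. UCHL3, a hydrolase that removes ubiquitin and NEDD8, had 70.4, 87.1 and 79.9 normalized counts in PBS cells and 99.1, 118 and 136 in cNSF-HA cells (log2 difference 0.56, adjusted p = 0.392). PPCS, an enzyme of coenzyme A synthesis, had 221, 189 and 240 against 299, 293 and 296, and its log2 difference was 0.45 with cNSF-HA replicate 3 and 0.46 without it. The others were MYCBP, which binds MYC, PIGH of glycosylphosphatidylinositol anchor synthesis, the membrane protein gene LRRN3, which reached a mean of 100 only through the libraries without tBHP and had 13.6, 18.5 and 18.6 against 23.2, 26.4 and 20.3 after it, HHLA3, the long non-coding RNA PWAR6 and the pseudogenes KRT8P12, UBE2SP1 and PFN1P1, whose counts may hold reads of keratin 8, UBE2S and profilin 1.

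Among the 10 lower ones the log2 differences ran from -0.76 to -0.50. SESN3, a sestrin that restrains mTORC1 under stress, had 87.4, 127 and 161 normalized counts in PBS cells and 63.2, 85.2 and 67.1 in cNSF-HA cells, which gave the largest of them (0.59 times the PBS level, standard error 0.22, adjusted p = 0.490 in limma). Its PBS libraries were themselves far apart. TNIK, a kinase of Wnt signalling, had 129, 139 and 113 against 89.6, 85.2 and 77.3 (log2 difference -0.59, adjusted p = 0.361). CNKSR3, a scaffold protein, had 134, 159 and 132 against 99.1, 91.3 and 105 (log2 difference -0.52, adjusted p = 0.361, and -0.57 without cNSF-HA replicate 3). In contrast, the histone acetyltransferase KAT6B had 199, 171 and 184 in PBS cells and 164, 157 and 69.1 in cNSF-HA cells, so that 1 library set its difference: it was -0.60 with cNSF-HA replicate 3 and -0.19 without it.

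The osmotic stress factor NFAT5 showed the same arrangement, with 1360, 1670 and 1485 against 1351, 1324 and 654, and the log2 difference of -0.51 became -0.16 without replicate 3. The remaining lower genes were TET1, which oxidises 5-methylcytosine, RAB11FIP1 of endosome recycling, the deubiquitinase USP49, JMY, a p53 cofactor and actin nucleator, and ANKRD36. TET1 had a mean under 100 over the 9 libraries after tBHP and passed the level set for naming through those without it. In 8 of the 10 higher genes cNSF-HA replicate 3 was the highest library of its group, and in 7 of the 10 lower genes it was the lowest. Without it, 13 of the 20 genes kept an unadjusted p under 0.05 (7 higher and 6 lower), beside 4.07% of all genes. Without PBS replicate 1 all but PWAR6 (0.22), LRRN3 (0.31) and KAT6B (-0.54) kept it, beside 11.2%. All 20 kept it once each library's dependence on GC content and length of transcripts had been taken out, beside 15.9%. Because the 20 were picked for a low p in these same libraries, these counts are in part set by the choice. The median transcript length was 778.8 bases for the 10 higher genes and 3056.8 bases for the 10 lower ones, and its part in their differences was not tested.

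**Figure D3:**
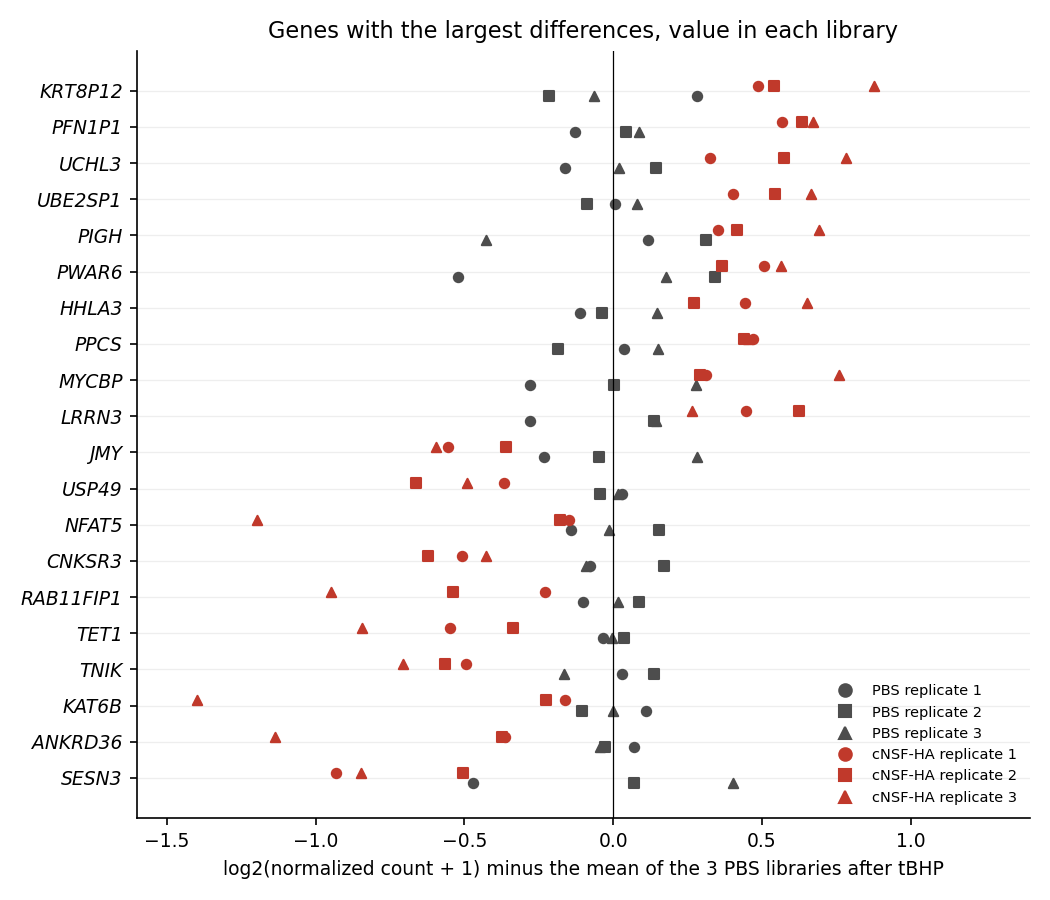
Log2(normalized count + 1) of each library after tBHP minus the mean of the 3 PBS libraries (x axis) for the 20 genes with the largest differences (y axis). Grey markers are PBS libraries and red markers cNSF-HA libraries; the groups do not overlap in any of these genes, since they were chosen so, and cNSF-HA replicate 3 (triangle) lies far out for KAT6B, NFAT5 and ANKRD36.

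Cells collected after the 6 h pre-incubation alone gave a contrast of cNSF-HA and PBS without tBHP. They were taken before the HA was removed and without the further 6 h of culture. In comparisons with and without tBHP, the oxidant, the added time and the removal of HA therefore cannot be told apart. Of the 13686 genes, 0 (0%) had an adjusted p under 0.05 between cNSF-HA and PBS cells in limma's test over 18 libraries, and 126 (0.921%) had an unadjusted p under 0.05. That fit holds 1 estimate of the spread for each gene over all groups, while the median SD was 0.07 without tBHP and 0.15 after it. With only the 6 libraries of the contrast, 1494 genes (10.9%) had an unadjusted p under 0.05 without tBHP and 0 (0%) an adjusted one (smallest 0.196), against the 535 (3.91%) after tBHP, so that the order of the counts with and without tBHP turned with the fit. None of the 20 genes with the largest differences after tBHP reached an unadjusted p under 0.05 without tBHP in either fit, and their log2 differences without tBHP lay between -0.16 and 0.11. The difference between the contrasts with and without tBHP was itself tested: 0 genes (0%) had an adjusted p under 0.05 (smallest 0.999) and 555 (4.06%) an unadjusted one, among them 11 of the 20. For UQCRB the log2 difference was 0.35 after tBHP and -0.05 without it, for PNPT1 0.38 and -0.05, and for SESN3 -0.76 and 0.01, and in none of these 3 did the difference of the contrasts pass the adjusted threshold. Since these genes were picked for their values after tBHP, the larger contrast after tBHP is in part set by the choice.

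The contrasts with and without tBHP share no library, although the fit takes its spread from all 18. Across the 13686 genes, which are not independent replicates, the log2 differences of the contrasts had a Pearson r of 0.0091 and a Spearman rho of 0.073. Of the 518 genes that were higher at an unadjusted p under 0.05 after tBHP, 40.0% were higher without tBHP as well, of the 665 lower ones 50.4% were lower, and over all genes 54.2% had the same sign.

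Cells pre-incubated with fNSF-HA and stressed in the same way are set beside these, with the reservation that fNSF-HA and cNSF-HA were each compared with the same 3 PBS libraries. PAK1IP1 had 602 ± 10.3 normalized counts (mean ± SD, n = 3) in fNSF-HA cells, against 581 ± 44.7 in cNSF-HA and 457 ± 21.8 in PBS cells. PNPT1 had 576 ± 61.0 in fNSF-HA, 522 ± 37.1 in cNSF-HA and 400.0 ± 19.4 in PBS cells. Against PBS, the fNSF-HA cells had log2 differences of 0.40 for PAK1IP1 (adjusted p = 0.0393 in limma) and 0.52 for PNPT1 (adjusted p = 0.0261). Between cNSF-HA and fNSF-HA the differences of both genes did not pass the test (-0.05, adjusted p = 0.609, and -0.14, adjusted p = 0.222 in limma).

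Of the lower genes, SESN3 had 141 ± 46.7 normalized counts in fNSF-HA cells, 71.9 ± 11.7 in cNSF-HA cells and 125 ± 36.8 in PBS cells. CDCP1 had 536 ± 11.8, 421 ± 68.2 and 566 ± 35.1 in the same order. In fNSF-HA cells SESN3 stood at 115, 195 and 113, so that replicate 2 raised its mean. The median SD within the fNSF-HA group after tBHP was 0.22 on the log2 scale, against 0.15 in the cNSF-HA and PBS groups. Between cNSF-HA and fNSF-HA the log2 difference was -0.92 for SESN3 (adjusted p = 0.0981 in limma) and -0.36 for CDCP1 (adjusted p = 0.0981). Neither passed the adjusted threshold. Against PBS, the log2 difference of fNSF-HA cells was -0.33 for TNIK, -0.26 for CNKSR3 and -0.86 for CTD-2192J16.15. It was -0.14 for JARID2 and -0.10 for RAB11FIP1, and lay between -0.03 and 0.07 for ANKRD36, KAT6B, TET1, NFAT5, USP49 and JMY. None of these passed the adjusted threshold in limma.

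Of 22 listed genes of hyaluronan metabolism and binding, 14 were tested, and 0 had an unadjusted p under 0.05, against 8.64% of all genes tested. That was also 0 without cNSF-HA replicate 3, beside 4.07% of all genes. Without PBS replicate 1, HYAL2 was higher (0.44) at an unadjusted p under 0.05, beside 4.33% of all genes. HMMR (-0.41) and the hyaluronan synthase HAS2 (-0.24) were then lower, beside 6.9%. With the GC and length trend removed, HYAL2 was higher and HMMR lower, beside 8.47% and 7.42% of all genes. CD44, the main hyaluronan receptor, had 33227, 34294 and 34158 normalized counts in PBS cells and 33969, 33545 and 30628 in cNSF-HA cells (log2 difference -0.05, standard error 0.06, adjusted p = 0.803). These ranges overlap, and the difference was -0.01 without cNSF-HA replicate 3. HMMR, which encodes RHAMM, had 460, 636 and 600 against 414, 541 and 446 (log2 difference -0.27, adjusted p = 0.596). HYAL2, a hyaluronidase anchored at the cell surface, had 702, 553 and 561 against 775, 738 and 755, with no overlap (log2 difference 0.33, adjusted p = 0.599).

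The 25 tested genes of CD44 cleavage and of its cytoplasmic partners had a median log2 difference of -0.10, and 24 of them were negative, beside a median of 0.00 and 6996 negative genes over all 13686. Only TIAM1 had an unadjusted p under 0.05, lower, beside 4.86% of all genes lower. Without cNSF-HA replicate 3, 1 gene was higher and 1 lower (beside 1.9% and 2.17%), and without PBS replicate 1, 1 was higher and 2 lower (beside 4.33% and 6.9%). TIAM1, an exchange factor that loads Rac1 with GTP, had 71.5, 57.7 and 62.4 normalized counts in PBS cells and 42.2, 38.6 and 49.8 in cNSF-HA cells (log2 difference -0.55, standard error 0.15, adjusted p = 0.450 in limma). Every cNSF-HA library lay below every PBS library, and without replicate 3 the difference was -0.64. The median of the list was -0.15 in cNSF-HA replicate 3 and -0.04 and -0.03 in replicates 1 and 2, relative to the PBS mean, and -0.03 over the list without replicate 3.

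A list of 8 transcription factor genes, drawn up with results of these data known, included 2 with an unadjusted p under 0.05, both lower, beside 4.86% of all genes. The count was 1 without cNSF-HA replicate 3 (beside 2.17%) and 3 without PBS replicate 1 (beside 6.9%). EGR1, an immediate early factor, had 3638, 3292 and 4010 in PBS cells and 2854, 3063 and 3083 in cNSF-HA cells (log2 difference -0.28, adjusted p = 0.490). ELK4, an ETS factor that works with SRF, had 908, 1228 and 1097 against 914, 864 and 609 (log2 difference -0.45, adjusted p = 0.544), with overlap between the groups and -0.27 without cNSF-HA replicate 3. In the promoters of the genes with the largest differences (RefSeq, 250 bases before to 50 after the start, GRCh38.p14), the CD44-ICD motif CCTGCG stood on either strand in 2 of the 12 that had an entry (16.7%), and in 36.2% of the 9700 promoters of genes tested.

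Of 40 p53 targets, 1 was higher and 2 were lower at an unadjusted p under 0.05, beside 3.78% and 4.86% of all genes, and the median log2 difference was -0.01. The counts were 0 and 0 without cNSF-HA replicate 3 (beside 1.9% and 2.17%) and 2 and 3 without PBS replicate 1 (beside 4.33% and 6.9%). CDKN1A, the p53 target that encodes the cell-cycle inhibitor p21, had 48647, 39991 and 42174 against 42582, 44701 and 45932 (log2 difference 0.03, standard error 0.10, adjusted p = 0.934). TRIAP1, an inhibitor of apoptosis, was the higher one, at 587, 504 and 595 in PBS cells and 640, 622 and 745 in cNSF-HA cells (log2 difference 0.25, adjusted p = 0.556).

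MDM2, the ubiquitin ligase that degrades p53 and is itself a p53 target, had 4424, 5522 and 5382 normalized counts in PBS cells and 4389, 4555 and 3754 in cNSF-HA cells (log2 difference -0.27, adjusted p = 0.569 in limma). The groups overlapped through PBS replicate 1, and the difference was -0.19 without cNSF-HA replicate 3. POLH, the polymerase that bypasses ultraviolet lesions, was lower by a log2 difference of -0.22 and by -0.07 without that library. RRM2B, the p53-inducible ribonucleotide reductase subunit, had 881, 1201 and 1061 against 880, 929 and 882 (log2 difference -0.21, adjusted p = 0.660, and -0.33 without PBS replicate 1). PRRX2, a homeobox gene of mesenchyme, and PYCARD, the adaptor of the inflammasome, differed by 0.18 (adjusted p = 0.808) and 0.37 (adjusted p = 0.607), and by 0.05 and 0.23 without cNSF-HA replicate 3. All these ranges but that of POLH overlapped.

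Among 19 genes of p53 regulators, 0 were higher and 5 lower at an unadjusted p under 0.05, beside 4.86% of all genes lower, and the list's median was -0.13. Beside MDM2 these included the kinase HIPK2 (-0.43), the acetyltransferase EP300 (-0.30, and -0.05 without cNSF-HA replicate 3) and the checkpoint kinase CHEK1 (-0.23, and -0.35 without PBS replicate 1). For each of the 5 the libraries of the groups overlapped. HIPK2 had 9025, 8173 and 7876 normalized counts in PBS cells and 7993, 7020 and 4248 in cNSF-HA cells, and its log2 difference was -0.16 without replicate 3. Without that library 1 of the 19 genes was lower at an unadjusted p under 0.05, beside 2.17% of all genes, and the list's median was -0.04. With the GC and length trend removed the median was also -0.04, but 6 of the 19 were lower, beside 7.42% of all genes. Without PBS replicate 1, 1 was higher and 3 were lower, beside 4.33% and 6.9%.

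**Figure D4:**
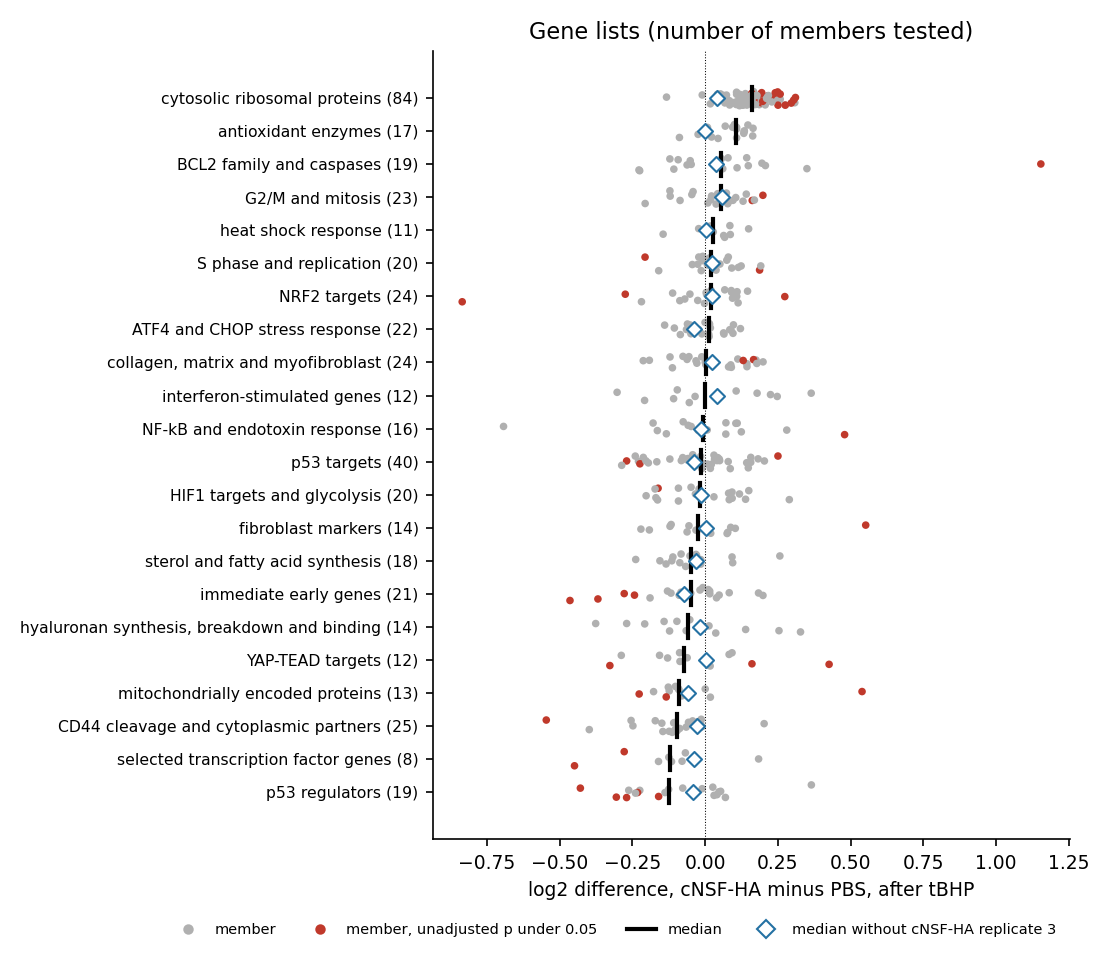
Log2 difference between cNSF-HA and PBS cells after tBHP (x axis) for the members of each gene list (y axis, with the number of members tested). Grey points are members, red points members with an unadjusted p under 0.05, black bars list medians, and blue diamonds the medians without cNSF-HA replicate 3, which lie nearer to 0 than the bars for ribosomal proteins, antioxidant enzymes and the CD44 and p53 regulator lists.

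Of the 24 NRF2 targets, 1 was higher and 2 were lower at an unadjusted p under 0.05, beside 3.78% and 4.86% of all genes, with a list median of 0.02 (0.08 without PBS replicate 1). With either of the libraries that stood apart left out, 1 was higher and 1 lower (beside 1.9% and 2.17% without cNSF-HA replicate 3 and 4.33% and 6.9% without PBS replicate 1). TXN, thioredoxin, had 5439, 5807 and 5570 normalized counts in PBS cells and 6060, 6492 and 7904 in cNSF-HA cells (log2 difference 0.27, adjusted p = 0.450), with all cNSF-HA libraries above PBS and a difference of 0.16 without cNSF-HA replicate 3. SRXN1, which repairs oxidised peroxiredoxins, was of low level, at 53.3, 46.8 and 42.7 against 22.1, 27.4 and 29.5 (log2 difference -0.83, standard error 0.28, adjusted p = 0.4998). ABCC1, a glutathione conjugate pump, differed by -0.27, and by -0.05 without cNSF-HA replicate 3. Of the antioxidant enzymes, 15 of 17 had a positive difference and their median was 0.11, yet the median was 0.30 in cNSF-HA replicate 3 and -0.01 and 0.00 in replicates 1 and 2, and 0 of the 17 had an unadjusted p under 0.05. SOD1, the cytosolic superoxide dismutase, had the smallest p of them (log2 difference 0.16, adjusted p = 0.591, and 0.05 without cNSF-HA replicate 3), followed by the peroxiredoxin PRDX4 (0.13, adjusted p = 0.660). No member was past an unadjusted p of 0.05 with either of the libraries that stood apart left out.

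Other stress programmes had few members past an unadjusted p of 0.05, which 8.64% of all genes reached. None of the 22 genes of the ATF4 and CHOP response, 0 of 11 heat shock genes and 0 of 12 interferon-stimulated genes were past it. The 3 counts were also 0 without cNSF-HA replicate 3 and without PBS replicate 1, beside 4.07% and 11.2% of all genes. In lists this small such shares amount to few members, so these counts say little about the programmes. The list medians were 0.01, 0.03 and 0.00. They were -0.04, 0.00 and 0.04 without cNSF-HA replicate 3, and 0.07, -0.01 and -0.01 without PBS replicate 1. The smallest p-values were those of PSAT1 of serine synthesis (-0.11, adjusted p = 0.703) and SHMT2 of mitochondrial folate metabolism (0.10, adjusted p = 0.743), of the chaperones HSPD1 (0.09, adjusted p = 0.747) and HSPA4L (-0.14, adjusted p = 0.772), and of the interferon-induced IFI44 (0.25, adjusted p = 0.628) and IFIT1 (0.36, adjusted p = 0.684). Of 16 NF-kB and endotoxin response genes only ICAM1, an adhesion receptor for leukocytes, had an unadjusted p under 0.05, beside 3.78% of all genes higher. It had 65.8, 52.3 and 43.8 normalized counts in PBS cells and 71.7, 80.2 and 72.2 in cNSF-HA cells (log2 difference 0.48, standard error 0.21, adjusted p = 0.567), with no overlap and a difference of 0.50 without cNSF-HA replicate 3. With either of the libraries that stood apart left out, 1 gene of that list was higher and 0 lower. Of 19 genes of the BCL2 family and caspases, BCL2A1, an anti-apoptotic BCL2 relative, had an unadjusted p under 0.05, higher, beside 3.78% of all genes higher. Without cNSF-HA replicate 3, 3 were higher (beside 1.9%), and without PBS replicate 1, 2 were higher and 1 lower (beside 4.33% and 6.9%). At 7.94, 8.71 and 5.47 against 21.1, 16.2 and 15.2 it was near the lower limit of the genes tested (log2 difference 1.15, adjusted p = 0.510).

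Immediate early genes, which serum and stress kinases switch on within minutes, held 4 of 21 members that were lower at an unadjusted p under 0.05, beside 4.86% of all genes, and 0 that were higher. Without cNSF-HA replicate 3, 3 were lower (beside 2.17% of all genes) and 0 higher, and without PBS replicate 1, 4 were lower (beside 6.9%) and 0 higher. KLF6 had 6691, 7045 and 7399 normalized counts in PBS cells and 6081, 6082 and 5694 in cNSF-HA cells (log2 difference -0.24, standard error 0.07, adjusted p = 0.468). EGR3 had 212, 206 and 229 against 177, 172 and 151 (log2 difference -0.37, adjusted p = 0.558), and NR4A2, a nuclear receptor, had 158, 209 and 131 against 119, 117 and 118 (log2 difference -0.46, adjusted p = 0.561). For these and for EGR1 all the cNSF-HA libraries lay below all the PBS libraries, and without cNSF-HA replicate 3 the differences were -0.21, -0.30, -0.46 and -0.30. The list's median was -0.05, and it was 0.03 without PBS replicate 1, in which the list lay 0.11 above the PBS mean.

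At an unadjusted p under 0.05, reached by 3.78% of all genes in the higher and 4.86% in the lower direction, 2 of 23 genes of G2/M and mitosis were higher and 0 lower. CCNB1, the mitotic cyclin, had 2388, 2538 and 2593 normalized counts in PBS cells and 2669, 2959 and 3008 in cNSF-HA cells, with no overlap (log2 difference 0.20, adjusted p = 0.497). CCNA2, the cyclin of S and G2 phase, differed by 0.16 (adjusted p = 0.567), and the list had a median of 0.06, which was -0.03 without PBS replicate 1, where 3 were higher and 1 lower at an unadjusted p under 0.05 (beside 4.33% and 6.9% of all genes). Without cNSF-HA replicate 3, 2 were higher and 0 lower, and with the GC and length trend removed 7 were higher, beside 8.47% of all genes, and 0 lower, with a median of 0.09. Of 20 genes of S phase and replication, the clamp protein PCNA was higher (4606, 4725 and 4533 against 4755, 5390 and 5682, log2 difference 0.19, adjusted p = 0.554) and GINS1 of the replicative helicase lower (-0.21, adjusted p = 0.567), with 0 past an unadjusted p of 0.05 without cNSF-HA replicate 3 and 1 higher and 2 lower without PBS replicate 1. Among 24 genes of collagen, matrix and myofibroblasts, TPM1, a tropomyosin, and MMP1, the interstitial collagenase, were the 2 with an unadjusted p under 0.05, with log2 differences of 0.13 (adjusted p = 0.558) and 0.17 (adjusted p = 0.562), which were 0.09 and 0.11 without PBS replicate 1. In this list 2 were higher and 0 lower with either of the libraries that stood apart left out, and 6 were higher and 1 lower with the GC and length trend removed, beside 8.47% and 7.42% of all genes.

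Of the 12 YAP-TEAD targets, 2 were higher and 1 lower at an unadjusted p under 0.05, beside 3.78% and 4.86% of all genes. Without cNSF-HA replicate 3 (beside 1.9% and 2.17%), or without PBS replicate 1 (beside 4.33% and 6.9%), 1 was higher and 0 lower. CTGF, a matricellular protein, had 17854, 17750 and 17327 normalized counts in PBS cells and 19810, 19034 and 20354 in cNSF-HA cells (log2 difference 0.16, standard error 0.05, adjusted p = 0.497). ANKRD1 had 73.8, 95.8 and 103 against 121, 114 and 129 (log2 difference 0.43, adjusted p = 0.558). Neither gene's groups overlapped, while PTPN14 (-0.33) overlapped and differed by -0.10 without cNSF-HA replicate 3. The hypoxia list held 1 gene of 20 past an unadjusted p of 0.05, VEGFA (-0.16, adjusted p = 0.554; 0 genes without cNSF-HA replicate 3 and 1 lower without PBS replicate 1). Of 18 genes of sterol and fatty acid synthesis 0 were past it, also with either library left out, and the smallest p-values were those of the desaturase SCD (-0.16, adjusted p = 0.595) and the carboxylase ACACA (-0.24, adjusted p = 0.650).

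Of 87 genes of cytosolic ribosomal proteins, 84 were tested. At an unadjusted p under 0.05, 18 were higher and 0 lower, 82 of 84 differences were positive, and the median log2 difference was 0.16, beside 3.78% of all genes higher and a median of 0.00. RPL9, of the large subunit, had 8826, 9697 and 9876 normalized counts in PBS cells and 10429, 11296 and 13499 in cNSF-HA cells (log2 difference 0.30, standard error 0.07, adjusted p = 0.386 in limma). RPS13, of the small subunit, had 6317, 6258 and 6384 against 6708, 7135 and 8854 (log2 difference 0.25, adjusted p = 0.497). RPL41 had 2943, 2189 and 2507 against 2833, 3181 and 3316 (log2 difference 0.30, adjusted p = 0.4998), with PBS replicate 1 inside the cNSF-HA range. RPS25 had 4265, 3715 and 3877 against 4192, 4694 and 5254 (log2 difference 0.25, adjusted p = 0.497), and its groups overlapped in the same way.

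In each of these 4 genes cNSF-HA replicate 3 was the highest library. Relative to the PBS mean, the median of the 84 genes was 0.41 in replicate 3 but 0.01 and 0.06 in replicates 1 and 2, close to the PBS libraries, which ran from -0.03 to 0.05. Without replicate 3 the median was 0.04, 60 of 84 differences were positive, and 4 genes were higher at an unadjusted p under 0.05, beside 1.9% of all genes: RPL9 (0.20), RPL41 (0.25), RPS25 (0.17) and RPS13 (0.13). Without PBS replicate 1, 13 were higher, beside 4.33% of all genes. With the GC and length trend removed and all libraries kept, 36 genes were higher at an unadjusted p under 0.05, beside 8.47% of all genes, and the median was 0.15, against 0.16 with the trend kept. Without tBHP, the median was 0.01 and 0 of the 84 genes had an unadjusted p under 0.05, beside 0.921% of all genes, and in the fit of those 6 libraries alone 4 were higher and 2 lower, beside 10.9% of all genes in either direction.

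Ribosomal protein mRNAs typically begin with a cytosine followed by a run of pyrimidines, the terminal oligopyrimidine (TOP) motif through which mTORC1 sets their translation. The windows of 30 bases around the annotated start are shown for the 6 members with the smallest p that had a RefSeq promoter, to show what these transcripts share beyond the list (GRCh38.p14, 5′ to 3′ on the gene's strand). Capitals mark a C followed by at least 4 pyrimidines that begins within 5 bases of the annotated start.
RPL9: gtacgtaatgacgacagacgttctttcttt
RPS25: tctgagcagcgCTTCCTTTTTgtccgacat
RPS13: ttccactctcgCTCTCCTTTCgttgcctga
RPL41: cggaacttcgCCTTTCTCTCggccttagcg
RPS23: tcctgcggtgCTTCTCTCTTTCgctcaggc
RPL22: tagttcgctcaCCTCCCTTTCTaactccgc
They lie at chr4:39458908-39458937, chr11:119018329-119018358, chr11:17077653-17077682, chr12:56116618-56116647, chr5:82278340-82278369 and chr1:6199581-6199610 in that order, RPL41 on the plus strand and the others on the minus strand. The motif was found in 52 of the 67 ribosomal protein promoters with an entry (77.6%) and in 22.9% of the 9700 promoters of genes tested. The window of RPL9 holds such a run only farther than 5 bases from the annotated start, so it is not marked. The match describes the transcripts and says nothing on their translation, which was not measured.

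**Figure D5:**
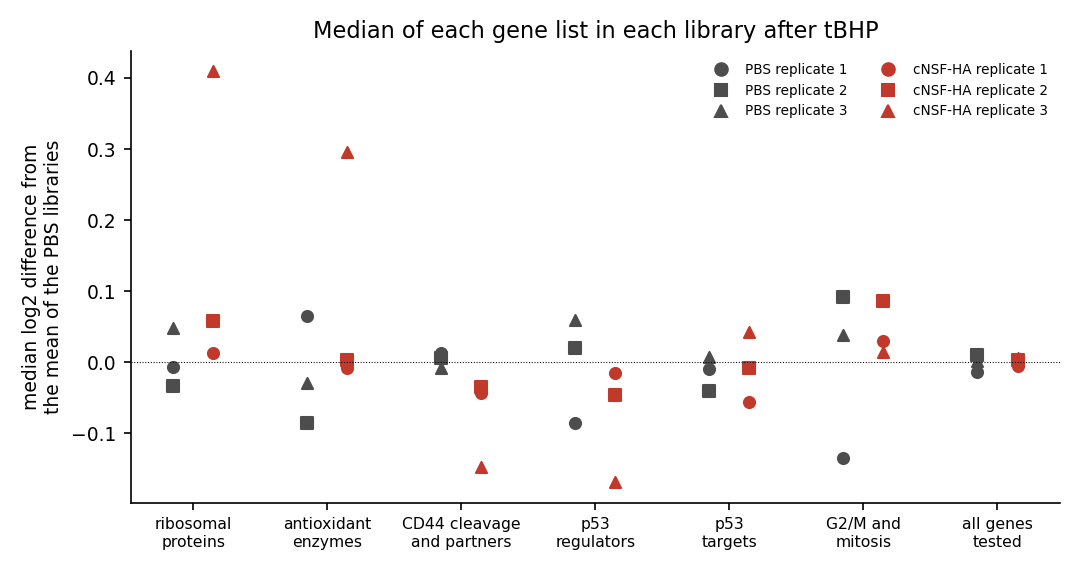
Median log2 difference of the members of 6 gene lists and of all genes tested from the mean of the 3 PBS libraries (y axis), for each library after tBHP. Grey markers are PBS and red markers cNSF-HA libraries; cNSF-HA replicate 3 (triangle) lies at 0.41 for ribosomal proteins and 0.30 for antioxidant enzymes, where the other 2 cNSF-HA libraries lie at 0.06 or below.

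The 13 mitochondrially encoded protein genes had a median log2 difference of -0.09, with 1 higher and 2 lower at an unadjusted p under 0.05, beside 3.78% and 4.86% of all genes. Without PBS replicate 1 the median was -0.15, with 1 higher and 4 lower (beside 4.33% and 6.9%), and without cNSF-HA replicate 3 it was -0.06, with 1 higher and 1 lower (beside 1.9% and 2.17%). MT-CO1, of respiratory complex IV, had 82057, 91293 and 88409 normalized counts in PBS cells and 79346, 79785 and 79262 in cNSF-HA cells (log2 difference -0.13, adjusted p = 0.575), with no overlap. MT-ND5, of complex I, was lower by -0.23 and by -0.09 without cNSF-HA replicate 3. MT-ATP8 was higher by 0.54 (0.88 without cNSF-HA replicate 3), but its gene overlaps that of MT-ATP6, and its libraries scattered from 1102 to 2355 in PBS cells and from 1413 to 2935 in cNSF-HA cells.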

How the data were processed

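The authors trimmed single-end reads of 100 nt from TruSeq RNA V2 libraries with Trimmomatic 0.32, aligned them with STAR 2.5.2b to GRCh38.p7 and counted them with featureCounts (Subread 1.5.0-p3), per the submitters' processing notes; the annotation and the strand setting are not given in the sources used here. The deposited signal is a gene's read count scaled by the library's DESeq2 size factor, called the normalized count; 100% of values were whole reads within 0.001 read, so reads were recovered. The deposited table also holds p-values, q-values and ranks of the authors, which were not used.

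Values were taken as log2(value + 1), which understates differences of low genes. Genes with a mean of at least 10 over 18 libraries were tested with limma 3.58.1 (R 4.3.3, mean-variance trend, 1 coefficient per group, 12 residual degrees of freedom, threshold 0.05). edgeR 4.0.16 and DESeq2 1.42.0 were run on the recovered reads of 18 libraries. DESeq2 gave no adjusted p for 1327 genes. GC and length came from GENCODE 29 transcripts, the median over the transcripts of a gene (12528 of 13686 genes, 91.5%), and their trend was removed with splines of 5 degrees of freedom. Gene coordinates are of GENCODE 29 (GRCh38). Groups came from the labels. Tests were tried on simulated data with the same dispersion for every gene, no library that stood apart and no trend in GC or length. These settings differ from the data, so nothing is concluded from them.

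Genes were named by rule: per direction the 10 largest differences (mean of at least 100, unadjusted p under 0.05, no overlap), the 10 smallest p-values, the DESeq2 calls, 7 genes of the study (1 more is not reported here), and, where named, list members with an unadjusted p under 0.05 or, with none, the 2 smallest; clone-named and Y-linked genes were left out, 3 of them among the largest higher differences. The comparison and the lists were chosen with earlier results of these data known. Alternatives were other pseudocounts, filters, scalings, tools, fewer libraries, a replicate block, group weights, trend removal and each library left out.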

Additional observations from a re-analysis of the deposited data

How the results depend on the processing

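The count of 0 genes with an adjusted p under 0.05 in limma became 1 with the GC and length trend removed, with or without a replicate block (HAT1, named after its values were seen), and 9 with DESeq2, but 0 with DESeq2 on the 6 libraries compared. With each library left out it ran from 0 to 1 in limma and from 0 to 92 in DESeq2. The count at an unadjusted p under 0.05, 1183, became 2143 with no filter, 1990 with the trend removed, 2182 with the trend removed and a block, 330 with only the 9 libraries after tBHP, 535 with only the 6 libraries compared, 712 with group weights, and 517 in edgeR and 411 in DESeq2 on those 6 libraries. It ran from 557 to 1923 with each library left out (487 to 1853 in DESeq2), lowest without cNSF-HA replicate 3 and highest without cNSF-HA replicate 1. Without tBHP, 4 genes passed the adjusted threshold with no filter and 0 with it. The causes were not tested.

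The replicate numbers were not taken as pairs: same-numbered libraries after tBHP had correlations of deviations of -0.02, 0.07 and 0.04, and a fit with a replicate block gave 0 adjusted and 1359 unadjusted calls. Of the 36 named genes, 35 had the same direction under all 28 settings. Most of the 36 were picked for their values in these same libraries, so this count is in part set by the choice. CDKN1A turned to -0.03 with the trend removed (-0.0265, with and without the block) and without PBS replicate 2 (-0.0293 in limma, -0.0311 in DESeq2). Of the list medians under all settings, 583 stayed within their spread and 33 moved. That spread was the pooled SD of a list's library medians within the groups, cNSF-HA replicate 3 included. A median that rested on that library could thus change and still count as within it. The median of the ribosomal proteins, for example, was 0.16 with that library and 0.04 without it. No setting varied the depth.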

Other observations

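HAT1, which encodes a histone acetyltransferase of newly made histone H4 and was named after its values were seen, was the gene called in limma once the GC and length trend was removed. It had 883, 1034 and 1039 normalized counts in PBS cells and 1214, 1299 and 1215 in cNSF-HA cells after tBHP. The groups did not overlap, and the log2 difference was 0.36 with the trend removed (adjusted p = 0.0294) and 0.34 with it kept (adjusted p = 0.392). In fNSF-HA cells, which were compared with the same PBS libraries, HAT1 had 1457 ± 197 normalized counts (SD, n = 3).

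NPAS4, an immediate early transcription factor that was also named after its values were seen, was the gene called in limma without PBS replicate 1. It had 5.67, 0 and 0 normalized counts in PBS cells and 10.5, 9.13 and 9.15 in cNSF-HA cells after tBHP. Its level was near the lower limit of the genes tested, and with all libraries its adjusted p was 0.361.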
